A study of Mus musculus with 12 samples.

Results

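Integrin and laminin genes were measured in mouse gonads that carried or lacked Foxl2, which encodes a forkhead factor made by granulosa cells, the somatic cells of ovarian follicles. Members were every gene whose symbol names an integrin alpha subunit, an integrin beta subunit or a laminin alpha, beta or gamma chain, each read from its probe set with the highest mean over the arrays of a table. The adult table held 36 of them among 19938 genes (26 integrin and 10 laminin genes), and the table of postnatal day 3 (P3) held 34 among 18194 genes, all of which were also in the adult table. Itga11 and Itgad were the 2 genes measured in adults alone.

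The adult groups were 3 mutant ovaries, given in the labels as Foxl2 flox/flox x CreEBD, 3 wild-type testes and 2 wild-type ovaries, each array from a single animal at 8 weeks, perfused with saline, with 0.25 of a testis used per array. The P3 groups were 2 arrays of Foxl2 KO ovaries and 2 of wild-type ovaries, each from a pool of more than 10 females that were not perfused. The labels do not state the strain, what drives the Cre, when the floxed gene was deleted, which allele the KO carries or whether the controls carry Cre. Adult values were RMA levels on a log2 scale and P3 values were MAS5 signals on a linear scale, from different array platforms, so no test was made across the 2 ages.

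Foxl2 itself was at 5.81, 6.04 and 5.73 in the mutant ovaries and 5.22, 5.38 and 5.31 in the testes, against 8.75 and 8.81 in the wild-type ovaries, and at P3 its signal was 186.4 and 153.7 in the KO pools, against 814.5 and 829.9 in the wild-type pools. Replicate arrays of a group correlated at 0.969 to 0.996 across genes, the lowest adult value being 0.976 between the wild-type ovaries. That pair differed by over 0.5 in 10 of the 36 members, with a median absolute difference of 0.30 over the members and 0.21 over all genes. Its effect on single genes is given beside them or under the other observations. For arrays, their number limits the precision. Differences are in log2 units, each with its standard error (SE) from limma. A gene passed where limma's p, adjusted by Benjamini and Hochberg over every gene of the table, was under 0.05. The comparisons of mutant ovary and of testis with wild-type ovary share the same 2 wild-type ovaries.

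Integrins are cell surface receptors made of an alpha and a beta subunit, and the pairing decides whether a cell binds laminin, collagen, fibronectin or other ligands. Laminins are trimers of an alpha, a beta and a gamma chain that form the sheet-like core of basement membranes. In the ovary a basement membrane separates the granulosa cells of a follicle from the theca, and in the testis one surrounds the seminiferous tubule with its Sertoli and germ cells. In bulk tissue, fewer cells of a type and less RNA per cell cannot be told apart.

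In adult mutant ovaries, the integrin subunit gene Itgb8 rose most and the collagen receptor gene Itga2 fell most among the members. In all 3 members rose (Itgb8, Lamb2 and Lama2) and 7 fell (Itga2, Itga1, Itga5, Lama4, Itgb3, Itga11 and Itga8). Of all genes 16.2% passed in this comparison, 9.55% higher and 6.66% lower in the mutants, beside 27.8% of the members, 8.33% higher and 19.4% lower. The members had a median difference of -0.09, close to the -0.02 of all genes, and ranged from -2.33 to 2.80. Of the 26 integrin genes 1 rose and 6 fell, and of the 10 laminin genes 2 rose and 1 fell. The mutant and wild-type ovaries did not overlap in 20 of the 36 members, 12 of them lower in mutants, where 39.9% of all genes did not overlap and 20.6% were lower.

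**Figure D1:**
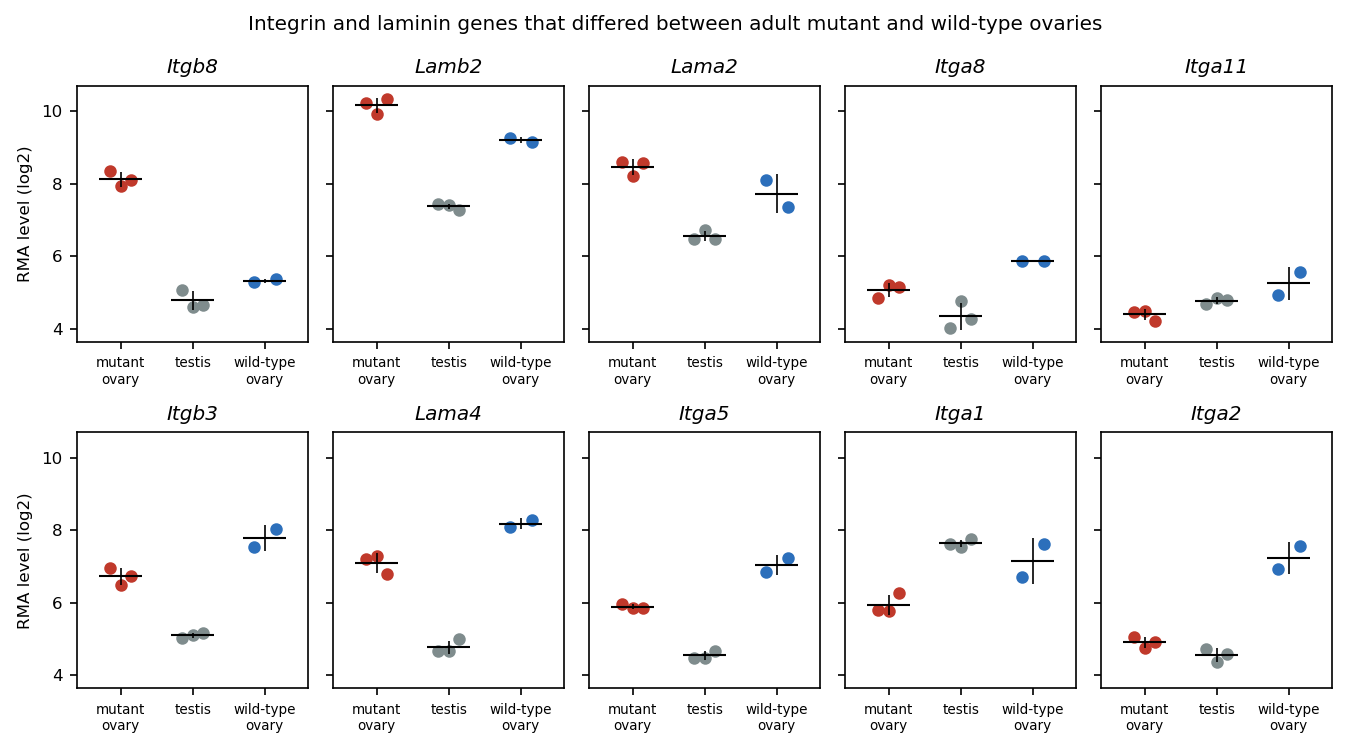
RMA levels (log2) of the 10 integrin and laminin genes that passed between adult mutant and wild-type ovaries, with 1 point per array, a horizontal line at the mean and a vertical line of 1 SD, for 3 mutant ovaries, 3 testes and 2 wild-type ovaries. Itgb8 stands at 7.92 to 8.34 in the mutant ovaries, above all testes and wild-type ovaries, and Itga2 at 4.75 to 5.05, below both wild-type ovaries.

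Itgb8 encodes a beta subunit that pairs with the product of Itgav and binds the latent form of the growth factor TGF-beta. Its level was 8.34, 7.92 and 8.10 in the mutant ovaries, 5.08, 4.61 and 4.66 in the testes, and 5.28 and 5.37 in the wild-type ovaries. The mutant ovaries thus lay above both kinds of wild-type gonad with no overlap, and the wild-type ovaries differed little from each other. The change against wild-type ovary was 2.80 ± 0.18 (SE, n = 3 and 2, limma adjusted p = 4.16e-06), or 6.95-fold. Leaving out each array in turn gave 2.69 to 2.89, with adjusted p between 9.85e-06 and 5.18e-05. Itgav, its partner, stood at 9.18, 8.59 and 8.94 in the mutant ovaries and 9.45 and 9.05 in the wild-type ovaries, overlapping groups that gave -0.35 ± 0.18 (adjusted p = 0.247).

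None of the other beta subunits that pair with the Itgav product rose. Itgb3, which also forms the fibrinogen receptor of platelets, was 6.96, 6.49 and 6.74 in the mutant ovaries and 7.53 and 8.03 in the wild-type ovaries, a fall of 1.05 ± 0.18 (adjusted p = 0.00299) with no overlap. Itgb5, of a vitronectin receptor, was 9.27, 9.54 and 9.36 in the mutant ovaries, between the 9.73 and 8.73 of wild-type ovaries 1 and 2. Its difference of 0.16 ± 0.23 did not pass (adjusted p = 0.714), although it was 0.66 with wild-type ovary 1 left out (adjusted p = 0.00657). Itgb6, an epithelial subunit, lay between 2.65 and 2.97 on all adult arrays and gave -0.08 ± 0.10.

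Of 4 collagen-binding alpha subunits 3 passed as lower in the mutant ovaries, where 6.66% of all genes were lower, and the 4 had a median of -1.03. Itga2, the subunit of a collagen receptor of epithelia and platelets, was 5.05, 4.75 and 4.93 in the mutant ovaries, 4.74, 4.37 and 4.59 in the testes, and 6.93 and 7.56 in the wild-type ovaries. The mutant ovaries were thus below both wild-type ovaries, a difference of -2.33 ± 0.20 (adjusted p = 2.87e-05). They were near the testes, but Itga2 was dim in both groups, under the gene medians of these arrays (5.45 to 5.60). Itga1, whose product binds the collagen of basement membranes, was 5.79, 5.77 and 6.26 in the mutant ovaries, 7.63, 7.55 and 7.75 in the testes, and 6.71 and 7.61 in the wild-type ovaries. It was lower in the mutant ovaries than in either wild-type gonad, the fall against wild-type ovary being 1.22 ± 0.24 (adjusted p = 0.00727), and -0.76 without wild-type ovary 2. Itga11, a receptor of fibrillar collagen on mesenchymal cells, was 4.46, 4.51 and 4.23 in the mutant ovaries and 4.94 and 5.57 in the wild-type ovaries (-0.85 ± 0.19, adjusted p = 0.0111). Without wild-type ovary 2 the call of Itga11 was lost, at -0.54 (adjusted p = 0.064). Itga10, a collagen receptor of cartilage, did not pass, with 5.12, 5.09 and 4.94 in the mutant ovaries and 5.44 and 5.39 in the wild-type ovaries.

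Subunits that bind the RGD motif of fibronectin and related ligands fell in 2 of 4 cases, where 6.66% of all genes were lower. Itga5, of the main fibronectin receptor, was 5.98, 5.84 and 5.86 in the mutant ovaries, 4.49, 4.48 and 4.68 in the testes, and 6.85 and 7.24 in the wild-type ovaries. The mutant ovaries lay between the other groups without touching either, at -1.15 ± 0.15 against wild-type ovary (adjusted p = 5.19e-04). Itga8, a receptor subunit of mesenchymal cells that binds nephronectin, was 4.84, 5.20 and 5.15 in the mutant ovaries and 5.88 and 5.86 in the wild-type ovaries. Its fall of 0.81 ± 0.21 (adjusted p = 0.0255) lost its call without mutant ovary 1 (-0.69), wild-type ovary 1 (-0.80) or wild-type ovary 2 (-0.81), with an adjusted p of 0.0616 to 0.0817 over these 3 fits. Itga2b, of the platelet receptor, lay between 4.46 and 4.89 on all 8 adult arrays and gave -0.21 ± 0.14.

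Among laminin chains the beta chain gene Lamb2 rose and the alpha chain gene Lama4 fell. Lamb2, a chain of the kidney filter and of the nerve-muscle junction, was 10.23, 9.93 and 10.33 in the mutant ovaries, 7.43, 7.41 and 7.29 in the testes, and 9.25 and 9.14 in the wild-type ovaries. All mutant ovaries were above both other groups, by 0.97 ± 0.13 against wild-type ovary (adjusted p = 6.29e-04). Lama4, the alpha chain of vessel walls, was 7.20, 7.30 and 6.78 in the mutant ovaries, 4.66, 4.67 and 4.99 in the testes, and 8.08 and 8.28 in the wild-type ovaries. It lay between testis and wild-type ovary with no overlap (-1.09 ± 0.18, adjusted p = 0.00226). Lama2, the alpha chain best known from muscle, was 8.59, 8.21 and 8.57 in the mutant ovaries and 8.10 and 7.35 in the wild-type ovaries. Its rise of 0.73 ± 0.21 (adjusted p = 0.0425) was lost without mutant ovary 1 (0.66), mutant ovary 3 (0.67) or wild-type ovary 2 (0.35, adjusted p = 0.235), and was 1.11 without wild-type ovary 1. It was also lost with only the ovaries in the fit (adjusted p = 0.126) and under quantile normalization (0.65, adjusted p = 0.074).

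The remaining 7 laminin chains did not pass. Lamb1 and Lamc1, the widespread beta and gamma chains, differed by -0.42 ± 0.14 and -0.14 ± 0.16, Lamb1 being lower in every mutant ovary. Lamb1 passed without mutant ovary 2 (-0.52), under quantile normalization (-0.55, adjusted p = 0.039) and with each array centred on its median (-0.43, adjusted p = 0.0495). Lama1, the alpha chain of early embryonic membranes, differed by 0.20 ± 0.17 and passed without wild-type ovary 1 (0.50). Lama5, of mature epithelial membranes, gave -0.11 ± 0.13, and the skin chains Lama3 and Lamb3 gave 0.13 ± 0.15 and -0.11 ± 0.13. Lamc3 was 7.67, 7.55 and 7.94 in the mutant ovaries, while wild-type ovaries 1 and 2 stood at 6.59 and 7.85. The difference of Lamc3 was 0.50 ± 0.29, and it passed at 1.13 without wild-type ovary 2.

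No laminin-binding integrin subunit passed. Itga6, the main laminin receptor subunit of epithelia, was 9.64, 9.13 and 9.43 in the mutant ovaries and 9.28 and 8.91 in the wild-type ovaries (0.30 ± 0.18). Itga3 gave 0.02 ± 0.23, Itga7, of muscle, 0.47 ± 0.28, and Itgb4, the partner of Itga6 in hemidesmosomes, -0.06 ± 0.17. Itgb1, the beta subunit shared by most of these receptors, was 9.75, 9.85 and 9.82 in the mutant ovaries and 9.87 and 10.23 in the wild-type ovaries. The groups of Itgb1 did not overlap, but the difference of -0.24 ± 0.12 passed only without wild-type ovary 1 (-0.42). Itga4 and Itga9, whose products bind the adhesion molecule of Vcam1, gave -0.11 ± 0.25 and -0.43 ± 0.18, and Itga9 passed without wild-type ovary 1 (-0.77).

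**Figure D2:**
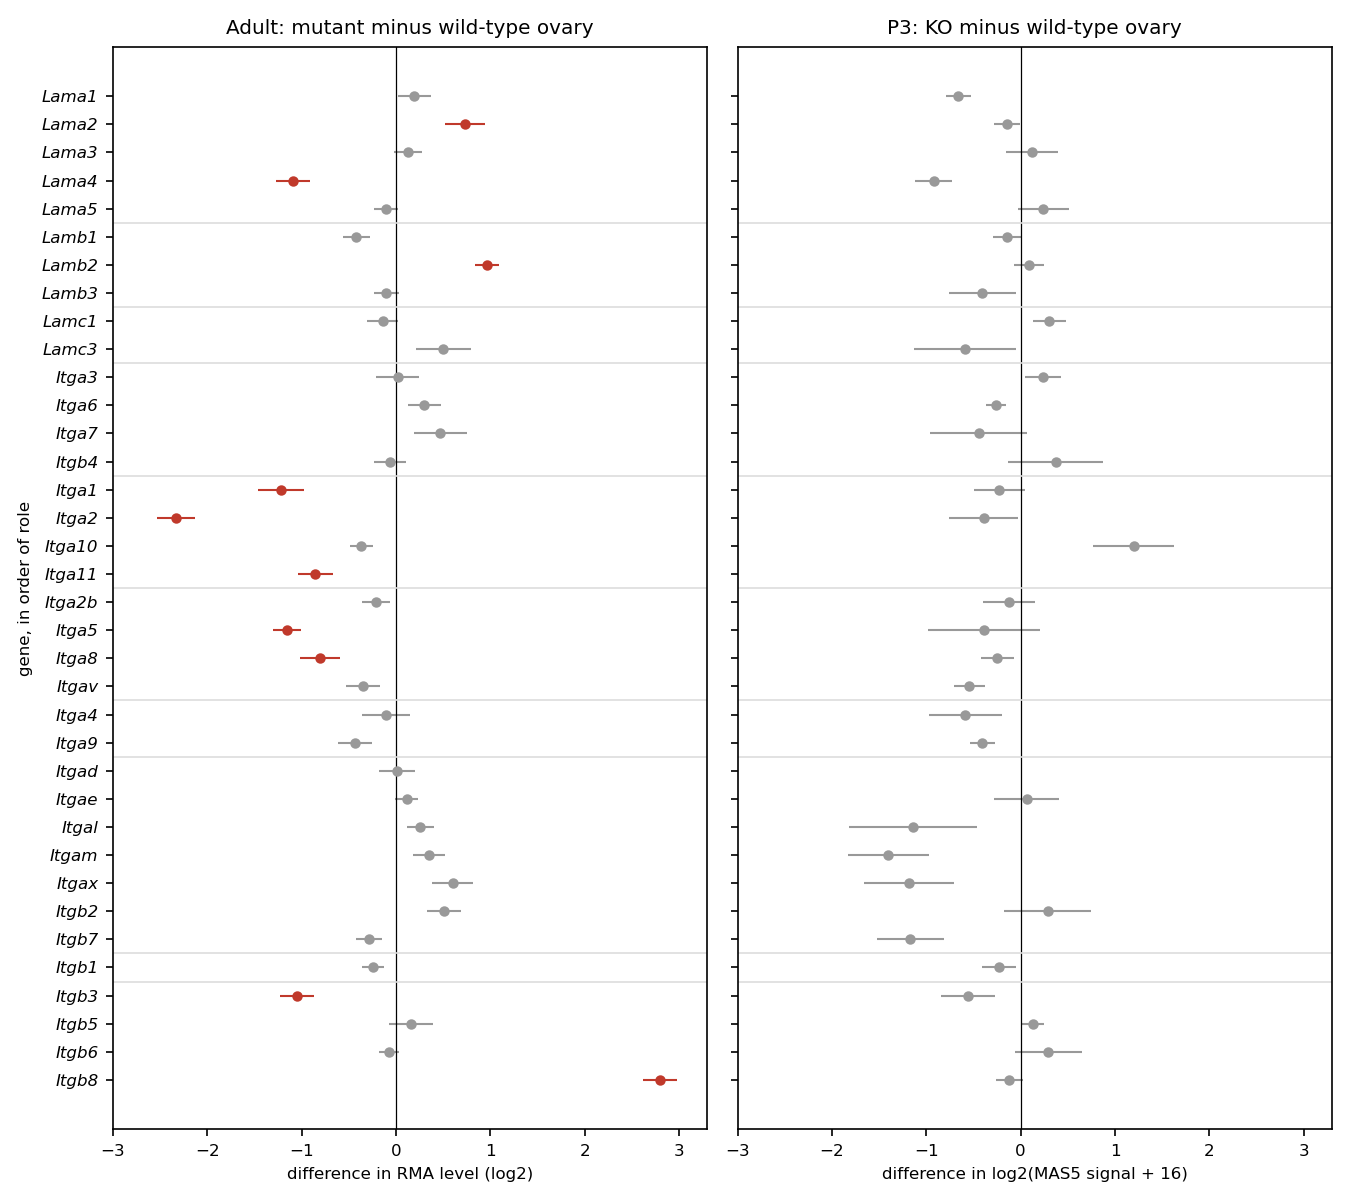
Differences of every integrin and laminin gene measured, with bars of 1 SE, in adult mutant minus wild-type ovaries (left, RMA level, log2, n = 3 and 2) and in P3 KO minus wild-type ovaries (right, log2 of signal plus 16, n = 2 and 2). Red points passed the threshold, grey lines separate the roles from laminin chains at the top to beta partners of Itgav at the bottom, and no point of the P3 panel is red.

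Leukocyte integrins stood beside small differences in leukocyte markers. None of the 7 subunits passed in mutant ovaries (median 0.26). Itgb2, the beta subunit of most of these receptors, gave 0.51 ± 0.18 and Itgax, of dendritic cells and macrophages, 0.60 ± 0.22. Both passed without mutant ovary 3, at 0.65 and 0.81. Itgal, Itgam, Itgad and Itgae, alpha subunits of lymphocytes and myeloid cells, gave 0.26 ± 0.14, 0.35 ± 0.17, 0.01 ± 0.19 and 0.12 ± 0.12, and Itgb7 gave -0.29 ± 0.14. Of 11 measured leukocyte markers 2 rose, and their mean level was 6.51, 7.10 and 6.55 in the mutant ovaries, against 6.30 and 6.27 in the wild-type ovaries. At most 5 of these 11 markers lay under the gene median of any adult ovary array. The 7 subunits were dimmer, with 6 under it in each mutant ovary and 7 in both wild-type ovaries. The part of leukocytes in these values was not tested.

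Markers of vessels and muscle moved with the fallers. All 6 smooth muscle and myoid markers fell, with a mean level of 6.91, 6.78 and 7.42 in the mutant ovaries, against 8.50 and 8.16 in the wild-type ovaries. Of 9 endothelial markers 5 fell and 0 rose, with a mean level of 6.86, 7.22 and 6.94 in the mutant ovaries, against 7.43 and 7.92 in the wild-type ovaries. No endothelial marker lay under the gene median of any adult ovary array. Of the smooth muscle and myoid markers 3, 3 and 1 lay under it in mutant ovaries 1, 2 and 3, and 0 in the wild-type ovaries. Theca and stroma markers did not move this way, since of 6 measured 1 rose and 1 fell, with a median of 0.36. Neither did 6 ovarian surface epithelium markers, of which 1 rose and 0 fell (median 0.49). Of 3 measured platelet markers 0 passed (median 0.20), with a dim mean level of 4.19 to 4.55 in the adult ovaries. The part of all these cells in the falls of Lama4, Itga1, Itga8, Itga11, Itga5, Itgb3 and Itga2 was not tested. Of 11 Sertoli cell markers 10 rose, with a mean level of 8.23 to 8.66 in the mutant ovaries, against 5.39 and 5.53 in the wild-type ovaries. Of 11 granulosa cell markers, a list that includes Foxl2, the mutated gene, 6 fell and 2 rose. The part of Sertoli and granulosa cells in the changes of Itgb8, Lamb2 and Itga2 was not tested either.

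The promoter sequences of Itgb8, Itga2 and Lamb2 are shown because these genes had the largest rise, the largest fall and the largest laminin rise among the members. Each is the stretch of 250 bases before the annotated start, from RefSeq on GRCm38.p6, and lies at chr12:119238277-119238526 (minus strand), chr13:114932101-114932350 (minus strand) and chr9:108479612-108479861 (plus strand). Capitals would mark the motifs searched, and none was found in these stretches.
Itgb8: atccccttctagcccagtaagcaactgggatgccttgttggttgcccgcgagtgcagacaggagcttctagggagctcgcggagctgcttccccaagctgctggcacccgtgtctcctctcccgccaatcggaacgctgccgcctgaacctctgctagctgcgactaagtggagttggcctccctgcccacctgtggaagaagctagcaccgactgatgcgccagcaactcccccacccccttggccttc
Itga2: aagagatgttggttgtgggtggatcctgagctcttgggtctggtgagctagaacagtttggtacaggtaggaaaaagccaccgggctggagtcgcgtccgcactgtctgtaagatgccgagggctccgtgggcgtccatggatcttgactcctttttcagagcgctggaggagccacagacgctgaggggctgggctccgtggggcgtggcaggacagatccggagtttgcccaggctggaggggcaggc
Lamb2: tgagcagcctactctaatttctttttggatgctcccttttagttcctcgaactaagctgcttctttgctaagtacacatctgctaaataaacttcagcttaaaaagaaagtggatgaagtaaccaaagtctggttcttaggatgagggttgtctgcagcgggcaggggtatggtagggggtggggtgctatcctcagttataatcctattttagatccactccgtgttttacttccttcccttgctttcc

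The table held promoters of 23 members, 26 in all, among 32851 promoters that run from 250 bases before to 50 bases after a start. On either strand, the forkhead motif GTAAACA was in 0 of the 26 and in 3.65% of all promoters, and the Sox motif ACAATGG was in 0 of the 26 and in 3.66% of all. The estrogen response element, GGTCA and TGACC with 3 bases between, was also in 0 of the 26, beside 0.07% of all. The GC box GGGCGG was in 12 of the 26, beside 35.7% of all. Among the 8 genes that passed in mutant ovaries and had a promoter there, Itga2, Itga5 and Lama2 held a GC box, that of Itga2 after the stretch printed. Counts of this size say only which letters stand in these windows.

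Other genes of cell adhesion changed in part in the adult mutant ovaries, where 9.55% of all genes were higher and 6.66% lower. Of 16 partners of laminin in the basement membrane 4 rose and 2 fell. Ntn4, a laminin-related netrin, rose by 1.46 ± 0.32, the collagen chain genes Col4a4 and Col18a1 by 1.29 ± 0.17 and 1.11 ± 0.23, and Nid2, which links laminin to collagen, fell by 1.21 ± 0.19. Of 19 other integrin ligands 2 rose and 3 fell. Fn1, fibronectin, the ligand of the Itga5 receptor, fell by 2.09 ± 0.29 and Thbs1, a thrombospondin, fell by 2.29 ± 0.29, while Tgfb3, one of the TGF-beta ligands, rose by 1.68 ± 0.20 and Vcam1 by 1.25 ± 0.26.

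Of 29 adaptor and signalling genes that act beneath integrins, 7 rose and 1 fell, where 9.55% of all genes were higher and 6.66% lower. Pxn, paxillin, rose by 1.68 ± 0.11 (adjusted p = 6.60e-06), Zyx by 1.08 ± 0.18, Vcl, vinculin, by 0.93 ± 0.14 and the kinase gene Src by 0.90 ± 0.19. Among 10 other laminin receptors 1 rose and 4 fell. The syndecan genes moved apart, Sdc4 rising by 1.39 ± 0.14 and Sdc1 falling by 1.53 ± 0.23, and Dag1, dystroglycan, fell by 0.54 ± 0.16. The medians of these 4 lists were 0.01, 0.002, 0.13 and -0.13 for membrane partners, ligands, adaptors and receptors, beside -0.02 for all genes.

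In adult testis most members were lower than in wild-type ovary. Of 36 members 29 were lower and 0 higher, or 80.6% lower, where 60.3% of all genes passed, 35.9% lower and 24.4% higher. By the unadjusted limma p under 0.05, 30 were lower and 1 was higher, beside 12688 of all 19938 genes in either direction. The members' median was -0.92, beside -0.15 for all genes. All 5 laminin alpha chains, 2 of 3 beta chains and both gamma chains were lower. Groups did not overlap in 32 members, of which 30 were lower in testis, where 73.8% of all genes did not overlap and 45.4% were lower.

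**Figure D3:**
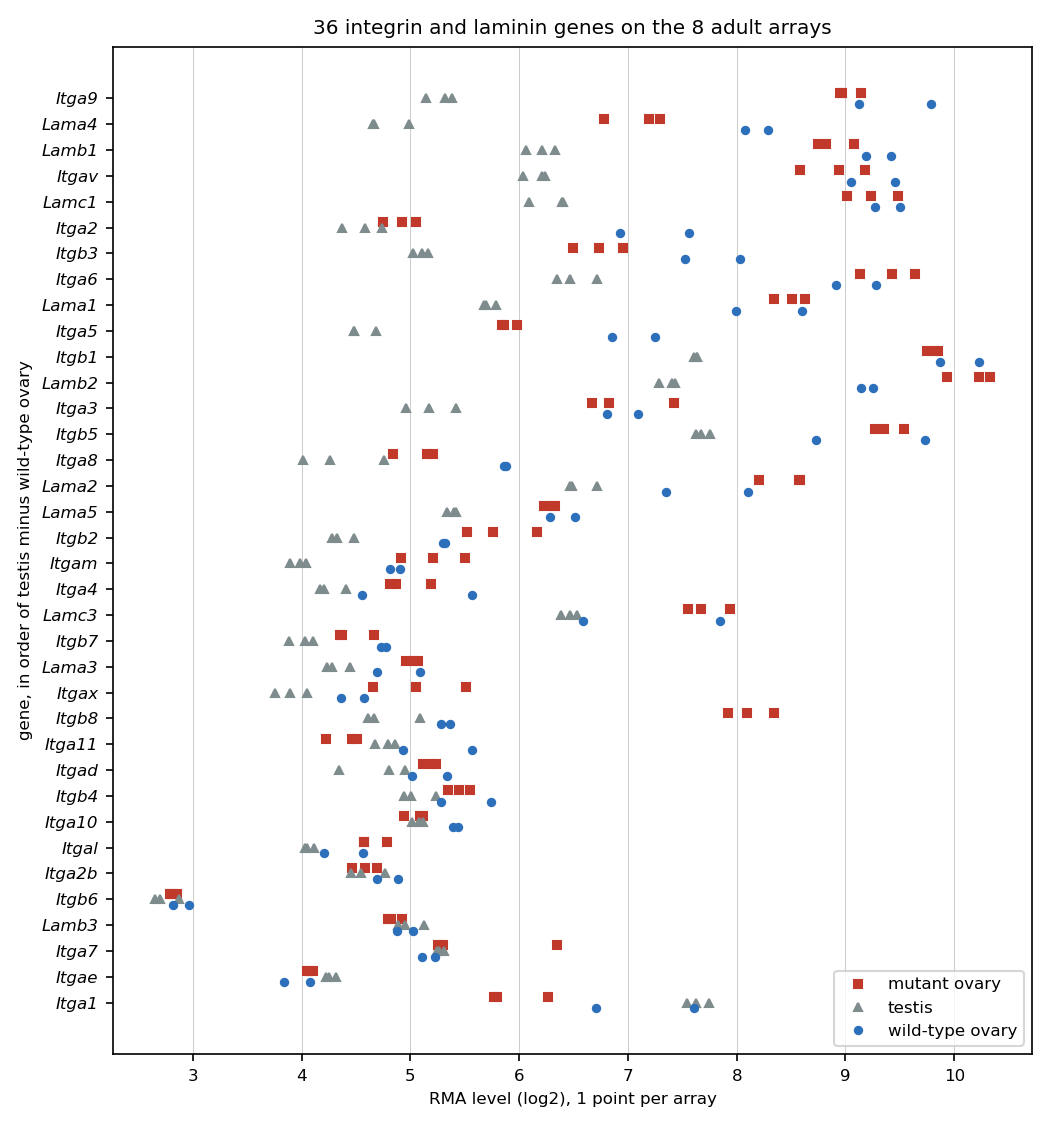
RMA levels (log2) of all 36 integrin and laminin genes on the 8 adult arrays, with 1 point per array for mutant ovaries (squares), testes (triangles) and wild-type ovaries (circles), ordered by the difference of testis from wild-type ovary. Points may be compared within a row and not between rows, since each gene has its own probe set, and Itga9 at the top and Lama4 after it show the widest gap between testis and wild-type ovary.

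Itga9 showed the largest difference of the organs, with 5.14, 5.38 and 5.32 in the testes and 9.13 and 9.79 in the wild-type ovaries (-4.17 ± 0.18, adjusted p = 1.05e-08). Laminin chains followed. Lama4 differed by -3.41 ± 0.18, Lamb1, with 6.33, 6.21 and 6.06 in the testes and 9.42 and 9.19 in the wild-type ovaries, by -3.10 ± 0.14, and Lamc1, with 6.09, 6.39 and 6.40 in the testes and 9.27 and 9.50 in the wild-type ovaries, by -3.09 ± 0.16. No testis reached a wild-type ovary in any of these chains. Lama1 differed by -2.58 ± 0.17, Lamb2 by -1.82 ± 0.13, Lama2 by -1.17 ± 0.21 and Lama5 by -1.01 ± 0.13.

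The common receptor subunits were lower as well. Itgb1 was 7.63, 7.63 and 7.61 in the testes and 9.87 and 10.23 in the wild-type ovaries (-2.42 ± 0.12), and Itgav was 6.04, 6.24 and 6.21 in the testes and 9.45 and 9.05 in the wild-type ovaries (-3.09 ± 0.18). Itga2 and Itgb3 each differed by -2.68, Itga6 by -2.59 ± 0.18, Itga5 by -2.50 ± 0.15, Itga3 by -1.77 ± 0.23, Itgb5 by -1.55 ± 0.23 and Itga8 by -1.53 ± 0.21. Among the leukocyte subunits Itgb2, Itgam and Itgb7 were lower, with differences of -0.95, -0.88 and -0.74, beside 10 of 11 leukocyte markers lower in testis.

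No member passed as higher in testis. Itga1 stood apart from the other receptors, with 7.63, 7.55 and 7.75 in the testes and 6.71 and 7.61 in the wild-type ovaries, and its difference of 0.48 ± 0.24 passed without wild-type ovary 2 (0.93). Itgae, at 4.22 to 4.32 in the testes and 3.84 to 4.08 in the wild-type ovaries, did not overlap (0.30 ± 0.12, adjusted p = 0.0502), and it passed at 0.43 with wild-type ovary 1 left out. Itga7, Itgb6, Itga2b and Lamb3 gave 0.11 ± 0.28, -0.15 ± 0.10, -0.20 ± 0.14 and 0.04 ± 0.13. Itgal did not pass at -0.32 ± 0.14, and did without wild-type ovary 1 (-0.50).

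Of the 29 lower members, 20 kept the call in every alternative that measured them, a required 2-fold change aside. Of the other 9, Itgb8 was at -0.54 and lost its call without testis 2 (-0.45), testis 3 (-0.47) or wild-type ovary 2 (-0.50), and Lama3, at -0.57, lost it without wild-type ovary 1 (-0.37). Itga10 (-0.35) and Itgax (-0.57) lost it without any single array, at -0.37 to -0.32 and -0.67 to -0.46. Lamc3, at -0.75, lost it without wild-type ovary 2 (-0.12) or testis 1 (-0.76), 2 (-0.79) or 3 (-0.71), and was -1.39 without wild-type ovary 1. Itga4, at -0.81, lost it without wild-type ovary 2 (-0.30) or testis 1 (-0.76) or 3 (-0.78), and was -1.31 without wild-type ovary 1. Itga11, at -0.48, lost it without wild-type ovary 2 (-0.16) or testis 1 (-0.43), 2 (-0.52) or 3 (-0.48), and was -0.79 without wild-type ovary 1. Itgb4, at -0.45, lost it without wild-type ovary 2 (-0.22) or testis 2 (-0.42) or 3 (-0.39), and was -0.68 without wild-type ovary 1. Itgad, at -0.48, lost it without testis 1 (-0.53), testis 2 (-0.30) or wild-type ovary 2 (-0.32), and gave 0.12 when its 2 probe sets were averaged.

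Germ cell markers moved with this comparison. All 8 spermatocyte and spermatid markers were higher in testis, with a mean level of 11.04 to 11.17 in the testes, against 3.99 and 4.03 in the wild-type ovaries. Endothelial markers averaged 5.07 to 5.14 in the testes and 7.43 and 7.92 in the wild-type ovaries, with 8 of 9 lower. Theca and stroma markers averaged 6.72 to 6.95 in the testes and 9.57 and 8.93 in the wild-type ovaries. The part of cell makeup in the lower members was not tested. Of the partner lists, 14 of 16 membrane partners and 12 of 19 ligands were lower in testis too, where 35.9% of all genes were lower. So were 8 of 10 other laminin receptors and 20 of 29 adaptors. Higher in testis were 8 of the 29 adaptors, beside 24.4% of all genes, among them Parvg by 3.07 and Tln2, a talin, by 1.70.

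Mutant ovary was also compared with testis, where most members were higher in mutant ovary. Of 36 members 27 were higher and 1 lower in mutant ovary, or 75.0% higher, where 61.8% of all genes passed, 37.5% higher and 24.3% lower. Groups did not overlap in 28 higher and 3 lower members, where 69.5% of all genes did not overlap and 42.8% were higher. The median was 1.20, beside 0.14 for all genes. The 3 genes that rose against wild-type ovary were also higher than in testis, Itgb8 by 3.33 ± 0.16, Lamb2 by 2.79 ± 0.12 and Lama2 by 1.90 ± 0.19. All 5 alpha and both gamma chains of laminin were higher, Lamc1 by 2.95 ± 0.15 and Lama1 by 2.77 ± 0.16. Cell type markers differed here too. All 8 spermatocyte and spermatid markers were lower in mutant ovary (median -7.37), while 8 of 9 endothelial (median 1.90), 5 of 6 theca and stroma (median 3.15) and 6 of 6 surface epithelium markers (median 3.44) were higher. Their part in the members' differences was not tested.

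The 7 fallers of the mutant ovary took different places beside testis. Lama4, Itgb3, Itga5 and Itga8 were still higher than in testis, by 2.32 ± 0.16, 1.63 ± 0.16, 1.34 ± 0.14 and 0.72 ± 0.19. Itga2 and Itga11 did not pass, at 0.35 ± 0.18 and -0.38 ± 0.17, and both did with testes and mutant ovaries alone in the fit. Itga1 was the 1 member lower than in testis, with a difference of -1.70 ± 0.22 (adjusted p = 4.79e-05). Among members that did not pass against wild-type ovary, Itga9 was higher than in testis by 3.74 ± 0.16, Itga6 by 2.89 ± 0.16, Itgav by 2.74 ± 0.16, Lamb1 by 2.68 ± 0.13 and Itgb1 by 2.18 ± 0.11. Calls of 3 members were lost on leaving out single arrays. Itgb4 (0.38) lost it without mutant ovary 1 (0.38), 2 (0.33) or 3 (0.44) and testis 2 (0.36) or 3 (0.33), Itga4 (0.70) without mutant ovary 1 (0.58) and testis 1 (0.65) or 3 (0.67), and Itgad (0.49) without mutant ovary 1 (0.48) or 2 (0.46) and testis 2 (0.31).

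At P3 no member passed. With limma 0 of 34 were called, beside 0.324% of all genes. At an unadjusted limma p under 0.05 there were 8 lower and 1 higher, beside 1734 of all 18194 genes in either direction. The median difference of the members was -0.24, beside -0.01 for all genes, and 23 of 34 were below 0. The KO and wild-type pools did not overlap in 18 members, 14 of them lower in KO, where 38.9% of all genes did not overlap and 19.7% were lower. The differences are of log2(signal + 16), which understates those of dim genes, and 14 of the 34 members were above the median gene mean. Of 8 oocyte markers 2 were lower in KO, with a mean level of at most 11.19 in the KO pools and at least 12.02 in the wild-type pools on that scale. Of 11 granulosa cell markers 3 were lower, with a mean level of 8.09 and 8.02 in the KO pools and 9.40 and 9.33 in the wild-type pools. That list includes Foxl2, the gene knocked out. Of 11 Sertoli cell markers 1 was higher, with a mean level of 8.68 and 8.84 in the KO pools and 8.00 and 7.96 in the wild-type pools. The part of these cells in the members' values was not tested.

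**Figure D4:**
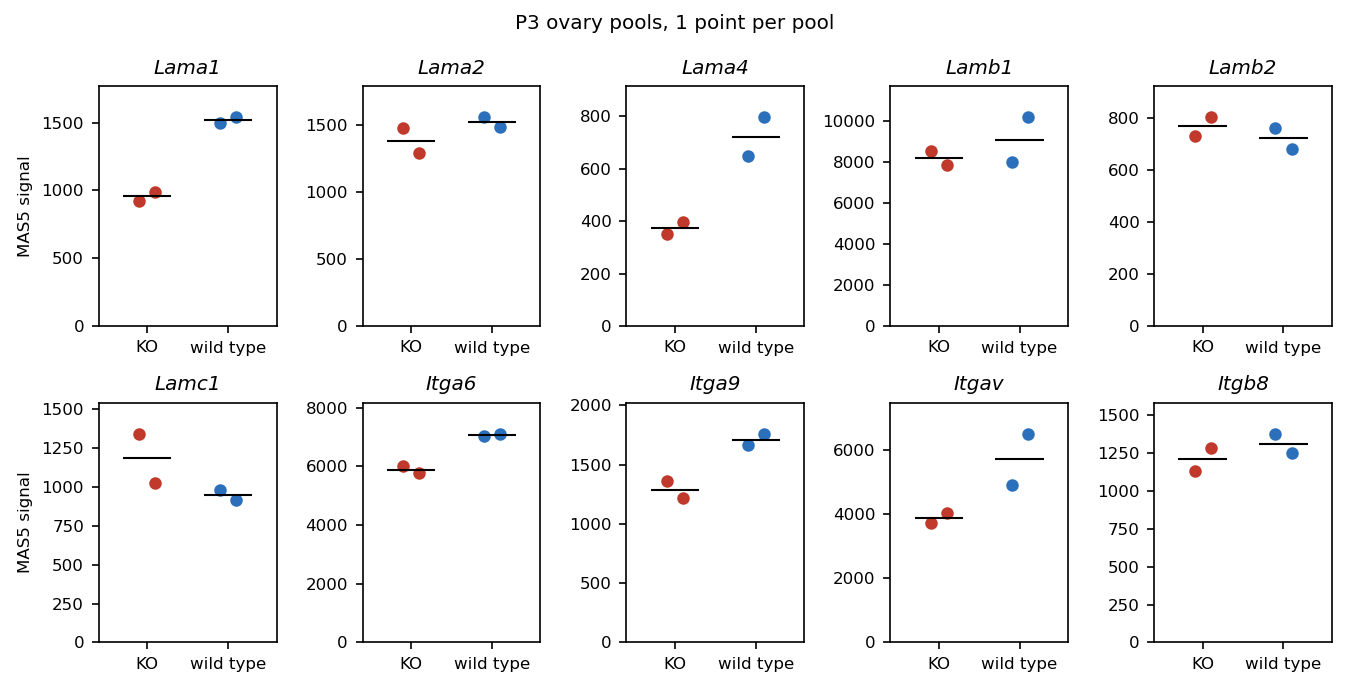
MAS5 signals of 6 laminin chains and 4 integrin subunits in the P3 pools, with 1 point per pool, a line at the mean of each group and every axis starting at 0, for 2 KO pools and 2 wild-type pools. Lama1 and Lama4 lie lower in both KO pools than in both wild-type pools, while those of Itgb8 and Lamb2 overlap.

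The laminin alpha chains Lama1 and Lama4 had the lowest p-values. Lama1 had signals of 922.7 and 988.8 in the KO pools, against 1497.2 and 1540.3 in the wild-type pools (-0.66 ± 0.13, n = 2 and 2, limma adjusted p = 0.134). Lama4 had 350.1 and 395.5 in the KO pools, against 648.8 and 796.9 in the wild-type pools (-0.92 ± 0.20, adjusted p = 0.15). Neither gene's groups overlapped. Endothelial markers averaged 7.91 and 7.52 in the KO pools and 8.26 and 8.07 in the wild-type pools on the log2(signal + 16) scale, with 0 of 9 passing and a median of -0.52, and their part in the value of Lama4 was not tested. Lama2, with 1476.6 and 1287.9 in the KO pools and 1558.3 and 1489.4 in the wild-type pools, gave -0.14 ± 0.14. Lamc1 had 1340.6 and 1026.7 in the KO pools and 978.2 and 915.8 in the wild-type pools (0.31 ± 0.17). Lamb1 and Lamb2 overlapped, at -0.14 ± 0.15 and 0.09 ± 0.16, as did Lama3, Lama5 and Lamc3, at 0.12 ± 0.28, 0.24 ± 0.27 and -0.59 ± 0.54. Lamb3, at signals of 47.3 or less, gave -0.41 ± 0.35.

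Among integrins at P3, Itgav had 3722.1 and 4056.4 in the KO pools and 4930.9 and 6514.9 in the wild-type pools (-0.54 ± 0.16, adjusted p = 0.315). Itga9 had 1359.1 and 1221.6 in the KO pools and 1664.7 and 1761.1 in the wild-type pools (-0.41 ± 0.13), and Itga6 had 6022.4 and 5754.7 in the KO pools and 7033.8 and 7106.3 in the wild-type pools (-0.26 ± 0.11). Every KO pool was below every wild-type pool in these 3 genes, on the probe sets used. Itgb8, the strongest adult riser, had 1133.4 and 1286.3 in the KO pools and 1379 and 1249.5 in the wild-type pools, groups that overlapped (-0.12 ± 0.14, adjusted p = 0.88). Itga2, the strongest adult faller, had 65.9 and 92.5 in the KO pools and 130.4 and 88.6 in the wild-type pools (-0.39 ± 0.37). Whether these genes differ between the ages was not tested.

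The other members at P3 spread widely around 0. On the probe sets used, Itgb3, Itga8, Itgb1 and Itga1 were lower in both KO pools, at -0.56 ± 0.29, -0.25 ± 0.17, -0.23 ± 0.18 and -0.23 ± 0.27. Itgb5 was higher in both, at 0.13 ± 0.12, while its other probe sets overlapped between the groups. Dim genes had the largest values, among them Itgam with 23.2 and 6.1 in the KO pools and 52.9 and 71.7 in the wild-type pools (-1.40 ± 0.43), Itgax (-1.18 ± 0.48), Itgb7 (-1.17 ± 0.36), Itgal (-1.14 ± 0.68) and Itga10 (1.20 ± 0.43). Leukocyte markers averaged 8.31 and 8.20 in the KO pools and 8.28 and 8.22 in the wild-type pools on the log2(signal + 16) scale, with 0 of 11 passing. Itga3, Itga4, Itga5, Itga7, Itga2b, Itgae, Itgb2, Itgb4 and Itgb6 gave values between -0.59 and 0.37, with 8 of these 9 overlapping between the groups. None of the 16 membrane partners, 10 laminin receptors, 19 ligands and 28 adaptors passed at P3, with medians of -0.05, -0.13, -0.26 and 0.11.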

How the data were processed

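The deposited adult values are log2 levels that the authors computed by RMA, which removes background, makes arrays comparable and combines the probes of a set. For P3 the deposited values are linear intensity, MAS5 signals whose trimmed mean is 500 on every array. The submitters' processing notes name Affymetrix Expression Console, RMA and MAS5. Per the labels' protocols 300 ng of RNA was labelled per adult array and 1000 ng by a CodeLink protocol per P3 pool, although MAS5 belongs to Affymetrix arrays, a conflict that was not resolved.

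Probe sets with a single gene in the platform annotation were used (21789 of 35557 adult and 34958 of 45101 P3 probe sets), with symbols updated by gene identifier through RefSeq GRCm38.p6. Of the members 1 in the adult table and 20 at P3 had several probe sets. The 8 adult arrays were fitted together and the 4 P3 arrays alone as log2(signal + 16), with limma 3.58.1 in R 4.3.3 (lmFit, eBayes with trend, two-sided). The adult replicates are single animals and the P3 replicates are pools, so p-values measure the spread between these. The fit was tested on simulated data. Members, roles, partner and marker lists were chosen with earlier results of these data known. Every member was named, and of the partner lists at most the 4 largest called differences per list and comparison. Alternatives were another probe set rule, a filter on dim genes, other scaling, no trend, fewer groups in the fit, other pseudocounts, a 2-fold requirement, a replicate block and leaving out each replicate. Same-numbered arrays were not tied by the labels, and their deviations from the group means correlated at -0.003 to 0.079 across genes, so no block was used.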

Additional observations from a re-analysis of the deposited data

Results flagged for a closer look

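In 4 members every mutant ovary moved one way in adults and every KO pool the other way at P3, and the difference between the ages was not tested. With so few arrays 39.9% of all genes did not overlap in the adult comparison and 38.9% at P3. How many of all genes did so in opposite directions was not counted, so the 4 are listed and not read as a result. Itga10 differed by -0.37 in adults and 1.20 at P3, Itgam by 0.35 and -1.40, Itgax by 0.60 and -1.18, and Lama2 by 0.73 and -0.14. Of these 8 values the adult one of Lama2 passed the threshold. The P3 signals of Itgam and Itgax were 105.2 or less in every pool. No group held enough arrays for a check of single outlying arrays.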

How the results depend on the processing

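Of the 10 members called between adult mutant and wild-type ovaries, 7 kept their call in every alternative that measured them, a required 2-fold change aside, and Itga8, Itga11 and Lama2 did not. A filter to genes above the median gene mean left 18 members and 4 lower calls in place of 7. A required 2-fold change left 6 calls, 1 of them higher. Leaving out single arrays gave 8 to 13 calls, 2 to 5 higher (5 without wild-type ovary 1, adding Itgb5 and Lama1) and 5 to 8 lower. Quantile normalization ended the call of Lama2, and it and median centring each added Lamb1, for 8 lower members. With the ovaries alone in the fit 1731 genes passed in place of 3232, and with a 2-fold change 1119. For testis against wild-type ovary, the filter and the 2-fold requirement each left 17 calls, all lower, and 1 member was higher with averaged probe sets, with median centring or without the trend (Itgae each time). Leaving out single arrays gave 22 to 28 calls, 21 to 27 of them lower and 0 to 1 higher. The filter left 8000 genes and the 2-fold change 6909 of 12028. Median centring, which subtracts from each array its own gene median, left 22 lower members and moved the members' median from -0.92 to -0.83. For mutant ovary against testis, the filter left 18 calls, 17 of them higher. Lower members numbered 3 with median centring and 2 with both groups alone in the fit. Itgam, read also from a probe set naming several genes, fell to 0.33 there and lost its call. The 2-fold change left 7181 of 12328 genes. Averaging its probe sets turned Itgad to 0.12 in testis against wild-type ovary and to -0.0903 in mutant ovary against testis. At P3 no alternative called a member, while all genes called went between 0 (no trend, or without a KO pool) and 305 (replicate block), with 22 for averaged probe sets, 186 for the filter, and 22 and 5 without wild-type pool 1 or 2, in place of 59. With the replicate number as a block the members called were 9, 24, 27 and 0 in these 4 comparisons, and Lama2 (0.72, adjusted p = 0.0665) lost its call in mutant against wild-type ovary.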

Other observations

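Mutant ovary 3 stood apart in a few epithelial and muscle genes. Itga7 was 6.35 there and 5.25 and 5.30 in mutant ovaries 1 and 2, and Itga3 was 7.42, against 6.82 and 6.67. The mean level of 6 ovarian surface epithelium markers was 8.85 in mutant ovary 3 and 7.72 and 8.03 in the others, and that of 6 smooth muscle and myoid markers was 7.42, against 6.91 and 6.78.

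The wild-type ovaries differed most in Lamc3 (6.59 in ovary 1 and 7.85 in ovary 2), Itga4 (4.56 and 5.57), Itgb5 (9.73 and 8.73) and Itga1 (6.71 and 7.61). Leaving out single arrays moved the difference of mutant from wild-type ovary between -0.61 and 0.40 for Itga4, which thus changed sign. It stayed between -2.65 and -2.02 for Itga2 and between -1.30 and -0.80 for Itgb3. Granulosa cell markers averaged 9.63 and 8.56 in wild-type ovaries 1 and 2, oocyte markers 7.14 and 5.51, and endothelial markers 7.43 and 7.92.

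At P3 a second probe set of Lama4 read 6.0 and 52.0 in the KO pools and 7.7 and 5.7 in the wild-type pools, so the difference of this gene rests on 1 probe set. For Itgav 3 of the 4 dimmer probe sets were also lower in both KO pools. The second probe set of Itga9 overlapped, at 777.2 and 617.9 in the KO pools and 813.8 and 766.6 in the wild-type pools, while its dimmest was lower in both KO pools. That of Itga6 overlapped too, at 128.4 and 100.4 in the KO pools and 272.9 and 70.7 in the wild-type pools. The second of Itga8 and the next brightest and the dimmest of Itgb1 were lower in both KO pools, while the others of Itgb1 overlapped. The second of Itgb3 overlapped, at 6.1 and 15.6 in the KO pools and 8.7 and 7.5 in the wild-type pools. So did that of Itga1, at 57.6 and 5.6 in the KO pools and 45.3 and 20.7 in the wild-type pools.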
